A study of Rattus norvegicus with 8 samples.

Results

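Neutrophils are short-lived phagocytes that leave the bone marrow, circulate in blood and enter tissue along gradients of chemokines and bacterial products. Their granule proteins are transcribed mainly in marrow precursors, whereas mature cells keep transcribing the cytosolic calprotectin genes, the receptor of granulocyte colony stimulating factor and the decoy receptor of interleukin 1. In the lung, interleukin 1 beta is also made by alveolar macrophages, and lipocalin 2 also by epithelium. The neutrophil genes described here are S100a8, S100a9, Mpo, Camp, Ltf, Lcn2, Csf3r, Fpr1, Il1b and Il1r2. A probe was assigned to a gene where its RefSeq accession belonged to that rat gene in the annotation. In this way 8 of the 10 genes had a probe, each of them 1 probe with 1 spot, among 13903 genes named on the array. S100a9 and Mpo had none by this rule and were not analysed.

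Expression was measured on 8 Arraystar rat lncRNA arrays, which also carry probes for mRNAs. All samples came from male F344 rats at week 95 of a lung carcinogenesis study with NNK, a nitrosamine of tobacco smoke. The lung groups were 3 lung tumors and 3 normal lung tissues matched to them, all from NNK-treated rats, so the normal lung had been exposed to NNK as well. Blood clots of 1 control rat and 1 NNK-treated rat made up the rest, and no lung of an untreated rat was measured. The clots were taken from whole blood, and no neutrophils were isolated from any sample. In such bulk samples fewer cells of a type and less RNA per cell cannot be told apart.

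The alveolar type 2 marker Sftpc read between 35862 and 97160 on the lung arrays and was not well above background on either clot array. The 7 red blood cell markers together read 3221590 and 3267610 on the clot arrays against 281832 to 447066 on the lung arrays. The beta globin probes Hbb and Hbb-b1 read at the top of the scanner range on both clots, and Alas2 on the NNK clot, so the sums of the clots are lower limits. These markers thus told lung from blood as the titles do, but not tumor from normal lung or the NNK clot from the control clot. The description label of the NNK clot array repeats that of a lung tumor, but its title, source and tissue say blood clot, and it was used as blood. The 3 normal lung arrays differed from each other by less than the noise between spots, with an observed over expected variance of 0.467 to 0.787, and so did tumor arrays 2 and 3, with 0.466. Tumor array 1 stood apart from those 2, with 3.03 and 3.36. Each set that differed by less than the noise was counted as 1 sample in a second fit, and nothing in the labels says that the arrays of a group came from separate animals, so p-values may measure technical spread only. Tumor array 1 shared its slide with the 3 normal arrays, tumor arrays 2 and 3 shared another, and both clots shared a slide that held no lung.

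The 250 bases before the transcription start are shown for Csf3r and Il1b, which were among the genes with less signal in the tumors, and for Camp, which changed by less. They were taken from RefSeq on the build GRCr8, whose table held 8 of the 10 genes. S100a8 and Il1r2 were not matched. Capitals mark 3 motifs searched on both strands: TTNNGNAA, a core bound by C/EBP factors, GAGGAA, a core bound by PU.1, and TATAAA, the TATA box. No matched motif overlapped another in the 3 sequences. Csf3r lies at chr5:143582970-143583219 on the plus strand, Il1b at chr3:137036582-137036831 on the minus strand and Camp at chr8:118721999-118722248 on the minus strand.
Csf3r: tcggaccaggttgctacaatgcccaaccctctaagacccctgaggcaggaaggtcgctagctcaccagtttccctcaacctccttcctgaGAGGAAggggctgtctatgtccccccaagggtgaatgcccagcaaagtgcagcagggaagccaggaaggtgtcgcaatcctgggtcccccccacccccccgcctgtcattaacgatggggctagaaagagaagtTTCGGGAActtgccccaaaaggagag
Il1b: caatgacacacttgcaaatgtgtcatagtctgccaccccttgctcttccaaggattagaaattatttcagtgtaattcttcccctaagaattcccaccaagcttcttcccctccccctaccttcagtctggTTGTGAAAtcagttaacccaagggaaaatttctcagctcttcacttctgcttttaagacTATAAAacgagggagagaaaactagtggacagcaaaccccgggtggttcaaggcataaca
Camp: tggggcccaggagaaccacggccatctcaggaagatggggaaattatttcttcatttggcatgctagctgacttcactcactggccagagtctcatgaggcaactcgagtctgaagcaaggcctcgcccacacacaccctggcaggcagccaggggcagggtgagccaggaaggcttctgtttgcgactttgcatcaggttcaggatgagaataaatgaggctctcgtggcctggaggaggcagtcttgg
In Csf3r the GAGGAA lay 160 bases and the TTNNGNAA match 26 bases before the start. In Il1b the TTNNGNAA match lay 119 bases and the TATAAA 60 bases before it, and none of the motifs was found in the window of Camp. Over the 8 promoters TTNNGNAA was found in 6, GAGGAA in 4 and TATAAA in 2, beside 37.2%, 23.3% and 12.9% of all 33469 promoters of the same length. These 8 are not the 8 genes measured, as they hold S100a9 and Mpo in place of S100a8 and Il1r2. S100a9 and Mpo, which had no probe, each had a TTNNGNAA and a GAGGAA match, and S100a9 also a TATAAA. These matches are descriptions of letters and not binding sites.

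In the lung, the neutrophil genes with clear signal were lower in the tumors than in the matched normal tissue. Csf3r, Il1r2, S100a8 and Il1b fell by 3.09-fold to 5.27-fold, Camp fell by less than 2-fold, and the difference of Lcn2 did not pass the test. A gene was called where it differed by at least 2-fold with a Benjamini-Hochberg adjusted p of at most 0.05 by limma over all probes tested. The scanner software had marked spots as outliers for S100a8 on 4 lung arrays, for Csf3r on 4 and for Il1b on 2. Such marks fell on 15.9 to 25.3% of bright spots on the tumor arrays and on 4.92 to 8.62% on the normal arrays. With marked spots left out only Camp, Lcn2 and Il1r2 could be tested, and 1 of these 3 was called lower, against 15.5% of all 12471 probes tested. With marked spots kept, 4 of 6 genes tested were called lower and none higher, against 14.4% and 13.5% of all 15803 probes. Their median log2 difference was -1.87, beside 0.064 over all probes. Ltf and Fpr1 were below the filter for dim probes.

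S100a8 (NM_053822.1) encodes a calcium-binding subunit of calprotectin, one of the most abundant cytosolic proteins of neutrophils. Its processed signal was 12424, 12779 and 12453 on the normal lung arrays and 2981, 2743 and 2367 on the tumor arrays. All tumor arrays were low and the groups did not overlap. Here and for the genes below, the share of all probes without overlap was not counted. Arrays that differ by less than the noise are also not independent evidence of such a gap. With marked spots kept, S100a8 was 4.34-fold lower in the tumors, a log2 difference of -2.12 (SE 0.093, limma adjusted p = 1.91e-05). With near-identical arrays counted once the difference was -2.08. The deposited values of the authors, which hold these spots, gave a difference relative to all probes of -2.15.

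Csf3r (NM_001106685.1) encodes the receptor of the cytokine that drives neutrophil production. Its signal was 1402, 1515 and 1408 in normal lung and 301, 328 and 260 in the tumors. This was the widest gap of the 6 genes tested, 5.27-fold or -2.40 on the log2 scale (SE 0.10, limma adjusted p = 1.6e-05, marked spots kept). It was -2.38 when near-identical arrays were counted once. Fpr1 (NM_001106216.1), the receptor of formylated bacterial peptides, read 12.6, 15.5 and 12.6 in normal lung and 2.62, 5.34 and 2.79 in the tumors. It was well above background on 1 normal array and on no tumor array, and no fold is given.

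Il1b (NM_031512.2) encodes the proinflammatory cytokine interleukin 1 beta, and Il1r2 (NM_053953.1) the decoy receptor that binds it without signalling. Il1b read 40213, 42475 and 36365 in normal lung and 13344, 10852 and 10981 in the tumors. Il1r2 read 2482, 2820 and 2432 in normal lung and 642, 594 and 518 in the tumors. Both genes were thus lower on every tumor array than on any normal array. Il1b fell by 1.63 on the log2 scale (SE 0.086, limma adjusted p = 3.64e-05, marked spots kept). Il1r2 fell by 2.22 (SE 0.098, limma adjusted p = 2.36e-05), with no spot of it marked on any array. Counted once, the near-identical arrays gave -1.59 for Il1b and -2.18 for Il1r2.

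Camp and Lcn2, which encode granule proteins, changed by less than these 4 genes. Some other genes listed with granules fell by more, as given below. Camp (NM_001100724.1), which encodes the antimicrobial cathelicidin of specific granules, read 1261, 1517 and 1343 in normal lung and 1036, 955 and 901 in the tumors. The groups did not overlap, but the log2 difference was only -0.56 (SE 0.084, limma adjusted p = 0.00239). With near-identical arrays counted once it was -0.53 and did not pass. Lcn2 (NM_130741.1), an iron-siderophore binding protein of specific granules that epithelial cells also make, read 191, 178 and 140 in normal lung and 167, 141 and 73.5 in the tumors. These ranges overlapped, and tumor 3 lay below the other arrays. Its log2 difference was -0.75 (SE 0.36, limma adjusted p = 0.12), and without tumor 1 it was -1.03 with a limma adjusted p of 0.0495, while without tumor 3 it was -0.36 with a limma adjusted p of 0.123. With the slide in the model it was -0.19. Ltf (NM_001106864.1), the iron-binding lactoferrin of the same granules, read 2.15 to 3.91 on the lung arrays and on none of the 8 arrays, blood included, was it well above background.

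A block for the slide sets tumor 1 alone against the normal arrays beside it, and its spread comes from the near-identical arrays, which tumor 1 is assumed to share. Under that block the same 4 genes passed with marked spots kept, with differences of -1.98 for S100a8, -2.34 for Csf3r, -1.48 for Il1b and -2.06 for Il1r2.

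**Figure D1:**
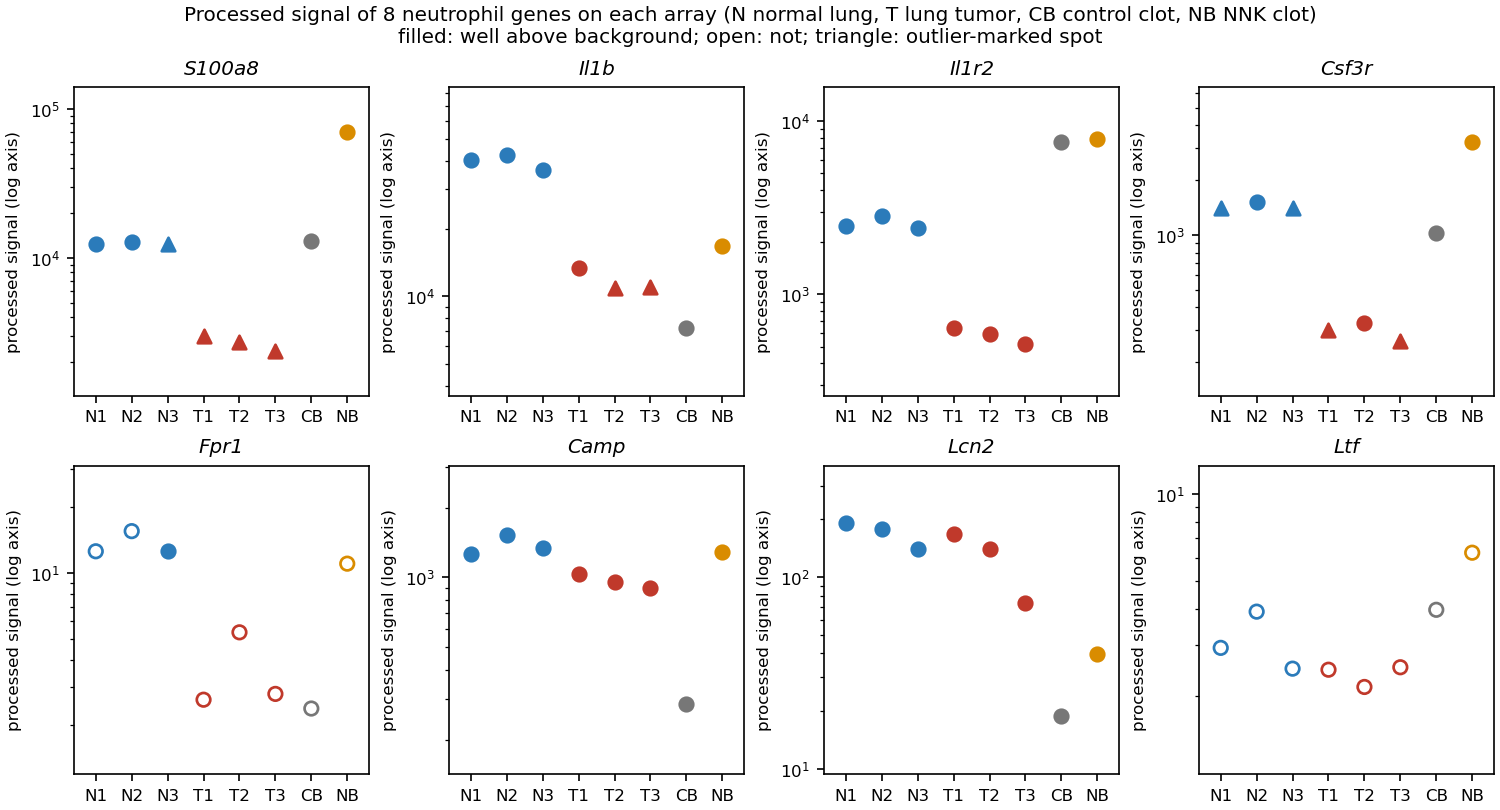
Processed signal (arbitrary units, log axis, background-subtracted and not normalized between arrays) of 8 neutrophil genes on each array. N1 to N3 are normal lung, T1 to T3 lung tumor, CB the control clot and NB the NNK clot, with 1 point an array. Filled points were well above background and triangles are outlier-marked spots. S100a8, Il1b, Il1r2 and Csf3r were lower on all 3 tumor arrays than on any normal array, while the Lcn2 points of the lung groups overlapped. The share of all probes with such a gap was not counted.

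Other genes listed with neutrophil granules did not move one way. Of 20 genes listed, 16 had a probe and 13 were tested with marked spots kept, of which 5 were called lower and 2 higher, with a median of 0.30. Beside this and the lists below, 14.4% of all probes were called lower and 13.5% higher with marked spots kept. With marked spots left out 5 of 10 granule genes were called lower and 1 higher, with a median of -0.82, beside 15.5% and 13.5% of all probes. The largest falls in the list were those of Defa5 and RatNP-3b, both alpha-defensins, and of Mmp9, the gelatinase of tertiary granules. Whether neutrophils were the source of the Defa5 signal was not tested. Defa5 read 576, 667 and 647 in normal lung and 61.8, 48.4 and 70.9 in the tumors, a log2 difference of -3.60 (SE 0.16, limma adjusted p = 2.59e-05). RatNP-3b differed by -3.51 (SE 0.09, limma adjusted p = 6.23e-06), and the probes of such closely related defensins may share signal. Mmp9 read 746, 766 and 721 against 111, 78.9 and 84.8, a difference of -3.23 (SE 0.17, limma adjusted p = 4.49e-05). Hp and Chi3l1 rose by 2.02 (marked spots kept) and 1.47. Hp encodes haptoglobin, stored in specific granules but also made by the liver and lung epithelium, and Chi3l1 a chitinase-like protein also made by macrophages.

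Of the oxidase and adhesion genes a few were called higher. Among the NADPH oxidase subunits 2 of 6 genes tested were called higher and none lower with marked spots kept. These were Ncf1, the organizer subunit, with 2.04 (SE 0.26, limma adjusted p = 0.00109), and Cybb, the membrane catalytic subunit, with 1.43 (SE 0.22, limma adjusted p = 0.00225). Both are expressed by macrophages too. Of 10 surface receptors and adhesion molecules reported here 2 were called higher, not far from the 13.5% of all probes. Itgb2 and Itgal, integrin chains shared by many leukocytes, rose by 1.32 and 1.78 with marked spots kept. Itgal read 3608, 4437 and 3813 in normal lung, 6653 in tumor 1, and 16933 and 17214 in tumors 2 and 3. Its rise thus lay mostly on the near-identical tumor arrays of the slide without normal lung.

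In the wider interleukin 1 system 9 of 13 genes were tested with marked spots kept, 1 called lower and 1 higher. Il1a, the other agonist of the receptor, read 17228, 18519 and 13768 in normal lung and 2388, 1968 and 1965 in the tumors, a log2 difference of -2.85 (SE 0.13, limma adjusted p = 2.05e-05, marked spots kept). Il1rn, the receptor antagonist, went the other way, with 11681, 12917 and 12577 in normal lung and 27320, 26585 and 26960 in the tumors. It rose by 1.27 (SE 0.06, limma adjusted p = 2.47e-05). The agonist genes Il1a and Il1b and the decoy receptor Il1r2 were therefore low on the tumor arrays on which the antagonist was high.

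Of 8 cytokine genes tested that recruit or expand neutrophils, 3 were called lower and 2 higher with marked spots kept. The chemokines Ccl3, Cxcl1 and Cxcl2 fell, with log2 differences of -1.81, -1.49 and -1.13, those of Ccl3 and Cxcl1 with marked spots kept. Cxcl1 read 10726, 12739 and 10739 in normal lung and 3861, 3458 and 3711 in the tumors. Csf3, the ligand of Csf3r, read 33.1, 37.4 and 35.2 in normal lung and 83.5, 181 and 187 in the tumors, and rose by 1.78 (SE 0.29, limma adjusted p = 0.00361). Receptor and ligand thus differed in opposite directions. Cxcl6 was not well above background on any normal array and read 19, 16.3 and 17.4 in the tumors, at least 1.1-fold higher. It passed the filter through the tumor arrays alone, so its place among the 2 higher genes says only that it was detected there.

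Among 5 granulocyte transcription factors tested with marked spots kept, Gfi1, a transcriptional repressor that neutrophil development requires, fell by 1.71. Spi1, which encodes PU.1, read 3890, 4146 and 3866 in normal lung and 10682, 10259 and 10193 in the tumors and rose by 1.53. Runx1 rose by 1.12 with marked spots kept. Cebpa was not well above background on any normal array and was at least 2.16-fold higher in the tumors, through which alone it passed the filter. Of the 8 other S100 genes tested, S100a11 was called higher with 1.72, marked spots kept, and S100a1 lower with -1.13.

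**Figure D2:**
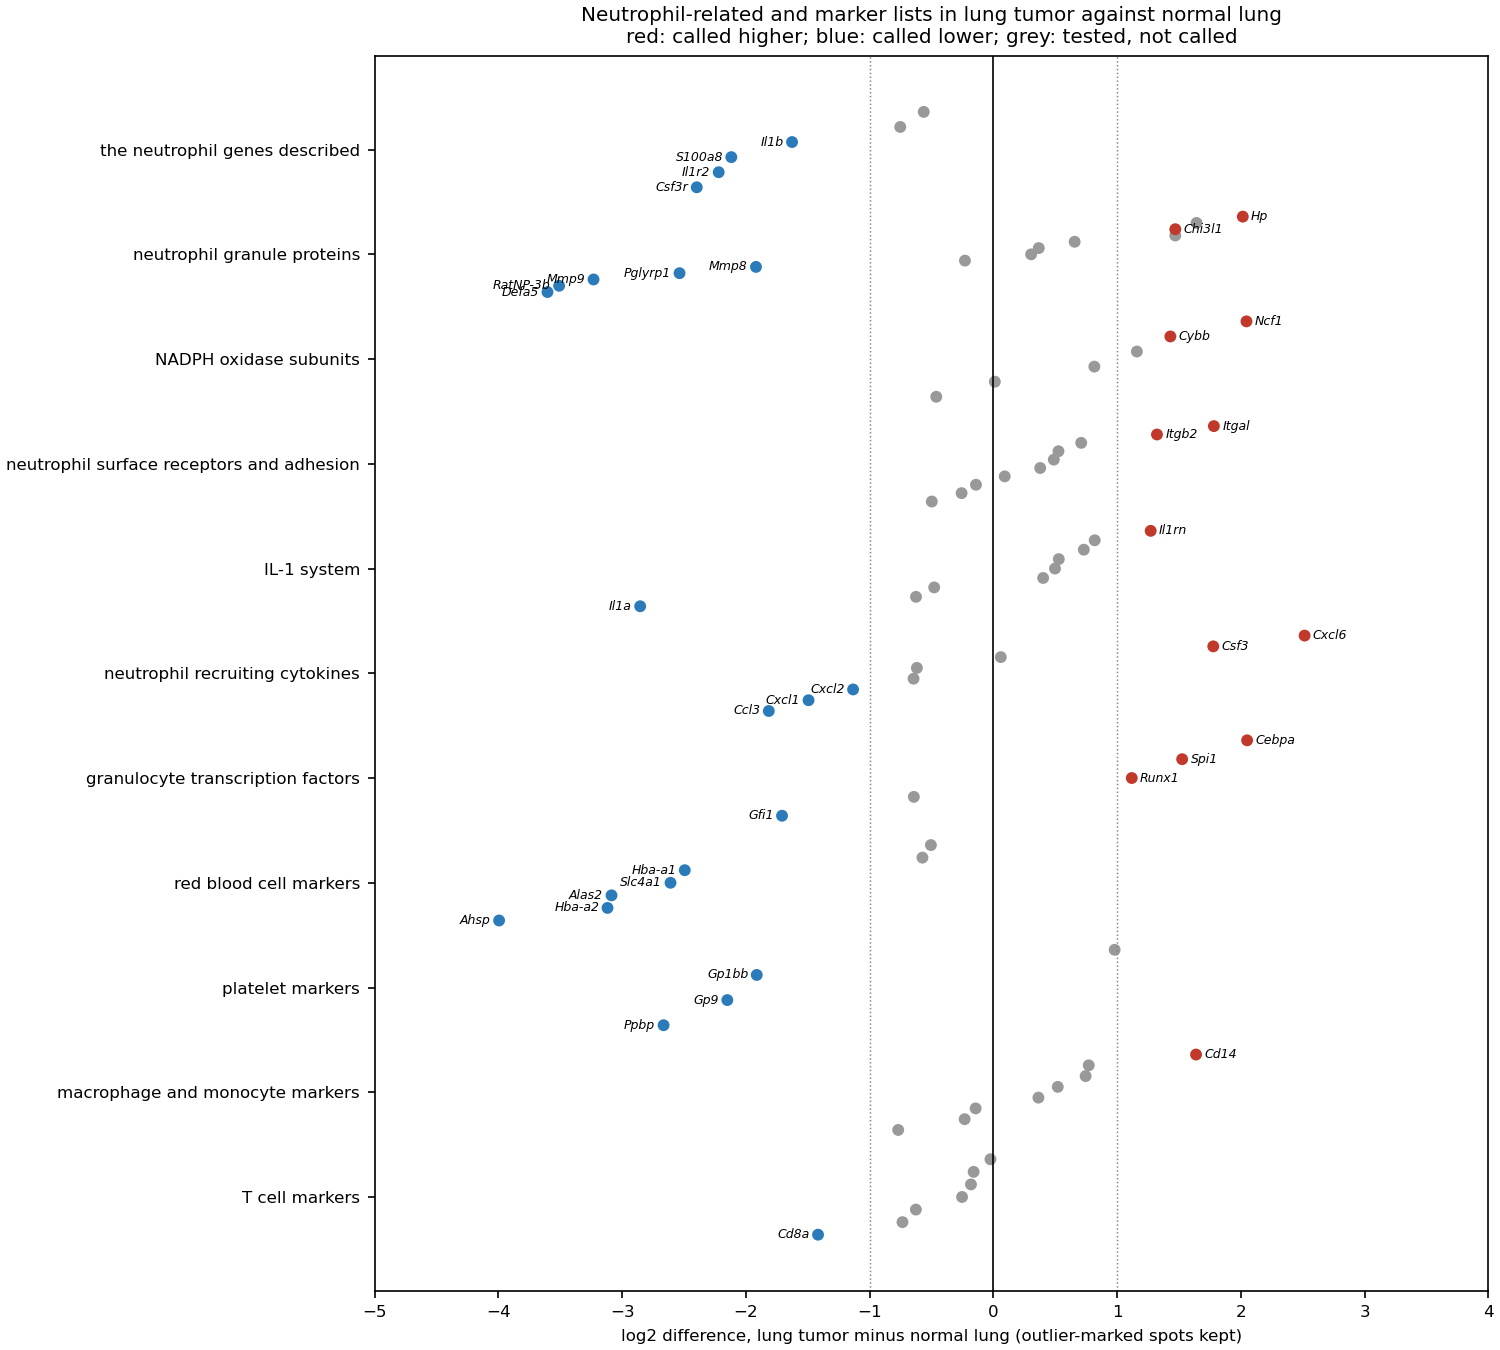
Log2 difference between lung tumor and normal lung (horizontal axis, outlier-marked spots kept) of each gene tested, by gene list (rows). Each point is 1 gene, colored by its call, and the dotted lines mark 2-fold. The neutrophil genes described have 4 called lower and none higher. The red blood cell, platelet and T cell markers also have calls lower and none higher, with 1 for the T cell markers. Ppbp, Gp9, Cxcl6 and Cebpa are drawn at their fitted values, although each was near background in a whole group.

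Red blood cell markers and some platelet markers moved with these genes. Of 7 red blood cell markers tested, 5 were called lower in the tumors and none higher with marked spots kept, and their summed signal was 414598 to 447066 in normal lung and 281832 to 311114 in the tumors. Ahsp, the chaperone of alpha hemoglobin, Hba-a2, an alpha globin whose probe may share signal with Hba-a1, and Alas2, the erythroid enzyme of heme synthesis, fell, with log2 differences of -3.99, -3.12 and -3.09. Of 4 platelet markers 3 were called lower. Ppbp and Gp9 were not well above background on any tumor array and were at least 4.48-fold and 3.42-fold higher in normal lung, and Gp1bb fell by 1.91. Ppbp and Gp9 passed the filter through the normal arrays alone, so no rise of them could have been called. The fourth, Pf4, had a difference of 0.98 and read 3922 to 4614 in normal lung and 7027 to 8658 in the tumors. The summed platelet signal, most of it from Pf4, was 4921 to 5719 in normal lung and 7334 to 8932 in the tumors. The part of blood content in the fall of the neutrophil genes was not tested.

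Each list of other leukocyte markers held 1 call, beside 13.5% of all probes called higher and 14.4% lower. Markers of lung epithelium are given after them. Of 8 macrophage and monocyte markers tested, 1 was called higher, Cd14 with 1.64 and marked spots kept, and their summed signal was 187963 to 197258 in normal lung and 196379 to 236300 in the tumors. Of 7 T cell markers 1 was called lower, Cd8a with -1.42, and the log2 differences of all 7 lay between -1.42 and -0.02. Their summed signal was 18733 to 20506 in normal lung and 10110 to 11519 in the tumors. The brightest probe, Cd8a, made up 9986 to 11050 of it in normal lung and 3315 to 3936 in the tumors. Of 5 mast cell and eosinophil markers 1 was called lower, Tpsab1 with -1.41. Of 2 B cell markers tested 1 was called higher, Cd79b, which was not well above background in normal lung and was at least 1.59-fold higher in the tumors. Cd79b passed the filter through the tumor arrays alone, so no fall of it could have been called. Of 6 type 2 alveolar markers 1 was called higher and none lower with marked spots kept. This was Sftpc with 1.14, while Sftpb and Sftpa1, which were not called, had differences of -0.30 and -0.26. Of 5 airway epithelial markers 3 were called higher and none lower, and Scgb1a1 and Scgb3a2, not called, had -0.07 and -0.30. The secretory genes Bpifa1 and Scgb3a1 rose by 2.90 and 3.48, the latter with marked spots kept. Bpifb1, not well above background in normal lung, was at least 18.8-fold higher in the tumors, and it too passed the filter through the tumor arrays alone. The part of these cell types in the differences of the neutrophil genes was not tested.

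In blood, S100a8, Camp, Csf3r and Il1b had more signal on the array of the NNK-treated rat than on that of the control rat. There was 1 array of each, so there is no test and no replicate check, and animal, treatment and array cannot be told apart. S100a8 read 12900 in the control clot and 70072 in the NNK clot, Camp 284 and 1286, and Csf3r 1031 and 3243. Il1b read 7216 and 16770, Il1r2 7623 and 7866, and Lcn2 18.8 and 39.8. Before normalization all 6 genes were thus higher in the NNK clot, as was the 75th percentile of the whole array, with 205.8 against 95.4.

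After quantile normalization of the 2 clot arrays the log2 difference was 2.33 for S100a8, 1.43 for Camp, 1.23 for Csf3r and 1.1 for Il1b. It was -0.08 for Il1r2 and -0.34 for Lcn2. Thus 4 of 6 genes were at least 2-fold higher and none lower, where 23.1% of 14452 probes were higher and 19.1% lower (23.2% and 18.9% with marked spots kept, which left the count as it was). With a shift to the 75th percentile instead, S100a8 at 1.33 and Camp at 1.07 stayed at least 2-fold higher, while Csf3r at 0.54 and Il1b at 0.11 did not, and Il1r2 came to -1.07. The median of all probes was -0.11 with quantile normalization and -0.26 with the shift. Relative to it the shift gave 1.59 for S100a8, 1.33 for Camp, 0.81 for Csf3r, 0.37 for Il1b, 0.23 for Lcn2 and -0.80 for Il1r2. Fpr1 and Ltf were not well above background on either clot array.

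The related genes in blood were mixed. Of 13 granule genes 6 were at least 2-fold higher in the NNK clot and 1 lower, beside 23.1% and 19.1% of all probes. Mmp9 read 316 and 1371 and Pglyrp1, a peptidoglycan-binding granule protein, 195 and 942. Il1rn was higher by 1.93, as was Cxcl2 by 1.53, while Csf3 was lower, with 401 in the control clot and 140 in the NNK clot. Of the other blood cell markers 4 of 7 T cell markers were at least 2-fold higher, 3 of 4 platelet markers lower, and none of the 7 red blood cell markers differed by 2-fold. For Hbb and Hbb-b1, at the top of the scanner range on both clots, a difference could not have shown. Alas2 was at the top on the NNK clot, so a rise of it could have been cut short. The part of these blood cells in the values of the neutrophil genes was not tested.

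Between the tissues, Il1r2, Csf3r, S100a8 and Camp were higher in the clots than in normal lung, relative to the other probes of each array. All 8 arrays were quantile-normalized together for this comparison, and the 2 clots, of different treatment, formed 1 group. On this log2 scale Il1r2 was 15.01 and 14.95 in the control and NNK clots and 10.37 to 10.45 in normal lung, a difference of 4.58 (SE 0.15, limma adjusted p = 4.29e-07). Csf3r was 13.16 and 14.08 against 9.67 to 9.72, a difference of 3.93 (SE 0.28, limma adjusted p = 1.22e-05, marked spots kept). S100a8 was 15.49 and 16.93 against 12.46 to 12.56, a difference of 3.71 (SE 0.58, limma adjusted p = 0.00697). Both clots lay above all normal lung arrays in these 3 genes, and the tumors below them, with 8.30 to 8.59 for Il1r2, 7.42 to 7.72 for Csf3r and 10.34 to 10.62 for S100a8.

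Camp was higher by 2.65 (SE 0.37, limma adjusted p = 0.00054), and Il1b by 0.88 (SE 0.27, limma adjusted p = 0.0344), under 2-fold. Lcn2 was lower by a log2 difference of -1.66 (SE 0.37, limma adjusted p = 0.00524), with 5.67 and 5.17 in the clots and 6.93 to 7.24 in normal lung. With marked spots left out 3 of 5 genes were called higher and 1 lower, against 31.9% and 45.8% of 17186 probes, and with marked spots kept 4 of 6 and 1, against 31.7% and 46.6%. Normal lung and blood lay on different slides, so tissue and slide cannot be told apart.

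These values depended on the scaling. The median of all probes was -0.97 with quantile normalization, 0.36 with the 75th percentile shift and -2.79 with no normalization. Relative to that median, S100a8 was at 4.67 with quantile normalization and 4.07 with the shift, Camp at 3.62 and 1.61, Il1r2 at 5.54 and 4.38 and Il1b at 1.85 and 0.94. Lcn2 turned from -0.69 to 0.17. Before any scaling Camp and Il1b lay lower in the clots, with log2 differences of -1.18 and -1.85, and the rises of S100a8 (1.26) and Csf3r (0.34) did not pass, with limma adjusted p of 0.261 and 0.496. With near-identical arrays counted once, which left 1 normal lung sample, S100a8, Camp and Lcn2 were no longer called.

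**Figure D3:**
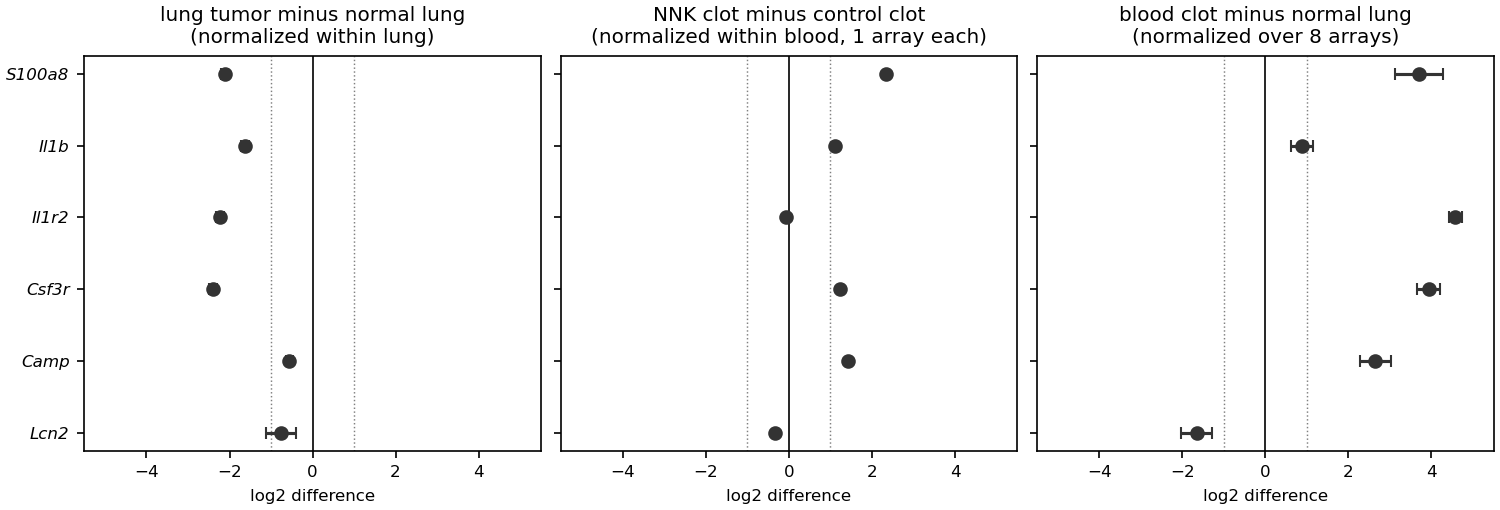
Log2 difference (horizontal axis) of the 6 neutrophil genes above the filter in 3 comparisons. Bars are the standard error of limma, the clots with 1 array each have none, and the dotted lines mark 2-fold. S100a8, Csf3r, Il1b and Camp are below 0 in the first panel and above 0 in the other panels, and Lcn2 is below 0 in each.

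Over the 8 arrays, normalized together with marked spots kept, the genes whose log2 signal was most like that of S100a8 were Pla2g7 (Pearson r = 0.9994), Isg15 (0.9993), Csf3r (0.9977), Pglyrp1 (0.9977) and Timp4 (0.9962), of 11687 probes compared. Pla2g7 encodes the phospholipase that inactivates platelet-activating factor, Isg15 an interferon-induced ubiquitin-like protein and Timp4 an inhibitor of metalloproteinases. These 8 points fall into 3 kinds of tissue and share arrays and scaling, and r is given as a description with no test. Pla2g7 read 2846, 3190 and 3011 in normal lung, 712, 744 and 697 in the tumors, and 1143 and 4647 in the control and NNK clots. Its order over the groups was that of S100a8 after normalization, tumor below normal lung below control clot below NNK clot. Of the other neutrophil genes Il1r2 had an r of 0.984 with S100a8, Camp 0.967 and Il1b 0.927, whereas Lcn2 had -0.575.

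**Figure D4:**
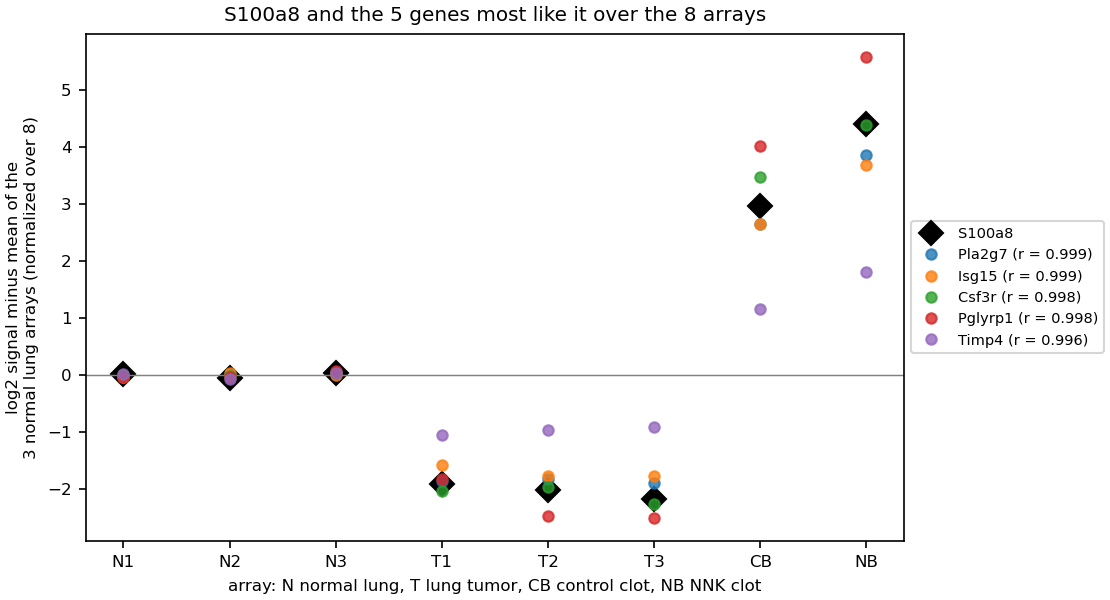
Log2 signal of S100a8 and of the 5 genes most like it (vertical axis, normalized over the 8 arrays, minus the mean of the 3 normal lung arrays) on each array (horizontal axis). Points are single arrays, and r is Pearson's r with S100a8 over 8 arrays. S100a8 lies at -2.19 to -1.91 on the tumor arrays, at 2.97 on the control clot and at 4.41 on the NNK clot, and Timp4 spans the smallest range of the 6 genes.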

How the data were processed

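RNA of 3 lung tumors, 3 matched normal lungs and 2 blood clots was extracted with Trizol, labeled with the Quick Amp kit and hybridized to 1-color arrays. The authors deposited spot intensities from Agilent's Feature Extraction 10.5.1.1, named in the submitters' processing notes, and log2 values that they quantile-normalized in GeneSpring. The log2 processed signals of 42136 spots were analysed here with R 4.3.3 and limma 3.58.1. They were quantile-normalized within lung, within blood, or over all 8 arrays for blood against lung. Outlier-marked spots were left out, and a gene lost in this way was given with them kept. Probes had to be well above background, in over 50% of their spots, on 3 lung arrays, 1 blood array or 2 of 8 arrays. The software marked no spot as saturated, but 3 spots of the control clot and 6 of the NNK clot shared the highest median signal of their array, none of them of a neutrophil gene. The number of arrays limits the precision. Accessions named 14274 of 15321 mRNA probes, and 15283 of these had 1 spot.

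The neutrophil genes and the related lists were chosen with earlier results of these data known. Named were all of the former, the genes of each related list called in lung with the largest rise and fall (at most 3 each way), and the 5 most like S100a8. A few others (Pglyrp1 and Mmp9 in blood, Pf4, Hbb, Hbb-b1, Sftpb, Sftpa1, Scgb1a1, Scgb3a2) were named after their values were seen. A bound ("at least") compares the mean of the brighter group with the dimmer one, where each array was given the lowest signal still well above background unless the gene read more. The labels call the lung tissues matched, and the same-numbered arrays had correlations of their deviations of 0.181, 0.0139 and 0.151. The methods give no single test for the arrays. One gene of the related lists is not reported here. The fits were tested on simulated data.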

Additional observations from a re-analysis of the deposited data

How the results depend on the processing

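In lung the calls of S100a8, Csf3r, Il1b and Il1r2 were the same under every alternative run (18 or 19 for each gene), with differences of -2.26 to -1.98, -2.47 to -2.05, -1.83 to -1.48 and -2.30 to -1.94. The run with near-identical arrays counted once had 1 normal lung sample, so its calls rest on the spread of the tumors alone. With marked spots kept, 4 to 5 of the neutrophil genes were called lower when 1 array was left out, the fifth being Lcn2 without tumor 1, and 4 with the replicate number as a block. With marked spots left out 1 was called lower, 1 to 2 with 1 array left out, 2 with no filter, 4 with the authors' values and 4 with marked spots kept. Over all probes in lung, 1683 were called higher and 1929 lower. With normexp it was 967 and 1256, with near-identical arrays counted once 778 and 976, and with the methods' paired t-test 1090 higher. The replicate block changed no call of a neutrophil gene. In blood 4 were at least 2-fold higher with quantile normalization, and 2 with the 75th percentile shift (1 lower), with quantile normalization over 8 arrays and with the authors' values. Over all probes 3339 were higher and 2757 lower. These became 6602 and 658 with no normalization, 1488 and 839 with normexp, and 2097 and 1733 with the stricter filter. With no normalization Lcn2 (1.08) and Il1r2 (0.045) turned to higher in the NNK clot. Between blood and lung 3 were called higher and 1 lower. It was 1 and 2 with no normalization, where Camp (-1.18) and Il1b (-1.85) turned. It was 5 higher with the authors' values, 0 lower with the 75th percentile shift, where Lcn2 turned to 0.53, and 2 lower with no filter. It was 0 lower with near-identical arrays counted once, where 5049 probes were called lower against 7875. Of the counts of the related lists under the alternatives, 220 were close to the main count and 50 were not. The causes were not tested. Ltf and Fpr1, near background, were not compared.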
